A study of Mus musculus with 5 samples.

Results

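The p53 pathway was followed through 35 genes in 5 single-cell RNA-seq libraries of mouse submandibular salivary gland cells. The members are p53 itself, its inhibitors, and genes known as its direct targets, taken by their symbols. All 35 symbols were found among the 31053 genes listed for the 7-day and tissue libraries, and all 35 among the 32285 genes listed for the 11-day library. Salivary gland organoids (mSGOs) are epithelial structures that dissociated gland cells form when embedded in a basement membrane gel (Matrigel). The 7-day libraries were a control without irradiation and mSGOs exposed on day 5 to photons or to plateau protons, at 7 Gy each, with all 3 collected on day 7. The other libraries, neither of them irradiated, were 11-day mSGOs and fresh gland tissue. All animals were female C57BL/6 mice of 8 to 12 weeks, without an engineered allele named in the labels. The organoids came from 4 animals and were pooled, so no value can be assigned to an animal. The 11-day library was made from different animals and run on its own. The medium contained Wnt3a and R-spondin1 conditioned media, EGF, FGF2, dexamethasone and the kinase inhibitor Y27632. Cells that excluded propidium iodide were sorted, which removes cells with a leaky membrane before measurement.

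Each group held 1 library, so no difference was tested and no p-value was computed. The intervals below are 95% intervals for counting error alone. They do not cover variation between animals, cultures or library preparations. After filtering, 1402 to 16929 barcodes per library were kept, with 5925403 to 32102942 unique molecular identifiers (UMIs, 1 per captured RNA molecule). The 7-day libraries held many barcodes with little nuclear RNA. At least 1% of UMIs came from Malat1, a transcript retained in the nucleus, in 1040 of the 6494 control barcodes. The same was true of 1584 of 16929 after photons, 1373 of 15325 after protons and 9369 of 9484 at 11 days. Barcodes at or above this share, here called Malat1-high, and those below it, Malat1-low, are therefore also given apart. Any pair of libraries shared between 3 and 79 barcode sequences. In the tissue library, acinar product markers summed to 42369 CPM (UMIs scaled to the same total in every library) and to between 0.0404 and 5.76 CPM in the organoid libraries.

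p53 is a transcription factor that is held at a low level by the ubiquitin ligase MDM2 and held inactive by MDM4. DNA breaks activate the kinases ATM and CHK2, which modify p53 and MDM2, so that p53 accumulates and binds response elements in its target genes. The targets include brakes on the cell cycle, mediators of cell death, DNA repair factors, metabolic regulators and MDM2 itself, which closes a feedback loop. Because p53 is controlled mostly at the protein level, the mRNA of its targets is the usual readout of its activity in RNA data. Salivary gland epithelium is known for its sensitivity to radiation, and p53-dependent cell death has been studied in it.

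The response element of p53 consists of a pair of 10-base units, here called decamers, around a core of CATG or a close relative of it. Promoter windows from 250 bases before to 50 bases after a gene start (RefSeq, GRCm38.p6) were matched by symbol for 27 of the 35 members, with 36 windows in all. A p53 decamer, whose general pattern reads the same on both strands, was present in 12 of the 36 windows (33.3%), against 2745 of 32851 windows of all genes (8.36%). A pair of decamers with at most 13 bases between them was found in 1 member window (2.78%), against 24 of all windows (0.0731%). That window was one of Cdkn1a, which encodes the cell cycle inhibitor p21. A match describes these letters only, and binding was not measured. The windows below each show 30 bases before a start, 5′ to 3′ on the strand of the gene, with the decamer in capitals. They are shown for the feedback loop, p21 and some of the targets whose values are described below.
Ccng1, chr11:40755452-40755481, minus strand, 185 bases before the start: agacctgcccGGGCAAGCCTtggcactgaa
Mdm2, chr10:117710925-117710954, minus strand, 186 bases before the start: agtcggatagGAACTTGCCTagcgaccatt
Trp53, chr11:69580274-69580303, plus strand, 75 bases before the start: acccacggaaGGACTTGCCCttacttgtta
Ppm1d, chr11:85311112-85311141, plus strand, 132 bases before the start: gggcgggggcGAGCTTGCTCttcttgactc
Cdkn1a, chr17:29090896-29090925, plus strand, 73 bases before the start: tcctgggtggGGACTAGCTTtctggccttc
Cdkn1a, chr17:29090918-29090947, plus strand, 51 bases before the start: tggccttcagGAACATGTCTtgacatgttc
Bax, chr7:45467080-45467109, minus strand, 201 bases before the start: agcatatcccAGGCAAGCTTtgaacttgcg
Sesn1, chr10:41887256-41887285, plus strand, 173 bases before the start of the shorter transcript: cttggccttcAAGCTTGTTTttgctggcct
Polk, chr13:96519399-96519428, minus strand, 231 bases before the start of the shorter transcript: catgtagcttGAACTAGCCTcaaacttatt
Members with a decamer fell on both sides of the ratios below: Ccng1 was among the highest in both irradiated libraries, whereas Trp53 was near 0.

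The irradiated libraries held more mRNA of a subset of the p53 targets 2 days after 7 Gy, while Trp53 mRNA itself was nearly level. Cyclin G1 (Ccng1), the death receptor gene Eda2r, the stress protein gene Trp53inp1 and the reductase gene Dcxr had the highest ratios in the photon library, each at least 1.71 times the control in CPM. Of the 35 members, 34 had at least 50 UMIs in the libraries compared, the minimum used for every gene. Pidd1, a scaffold of the PIDDosome, was below it with 8, 13 and 7 UMIs in the control, photon and proton libraries. Ratios are log2 ratios of CPM after adding 1 CPM, and a gene was called higher or lower when this ratio was at least 0.5 in size. For photons 15 of the 34 members were called higher and 0 lower, where 6.49% of all 10589 genes were called higher and 2.92% lower. For protons 11 of 34 were called higher and 0 lower, against 6.15% and 3.42% of 10443 genes. With at least 2500 detected genes per barcode, which keeps 193 control, 248 photon and 218 proton barcodes, 29 members had enough UMIs. Of these 6 were called higher for photons (8.83% of all genes) and 9 for protons (9.51%), and Eda2r and Fas were among those with too few UMIs. The median member ratio was 0.25 for photons, where the median of all genes was 0.09, and 0.36 for protons, again with a median of 0.09 over all genes. Both comparisons use the same control library, so they are not independent of each other.

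Scaling to the median of gene ratios in place of library totals lowered every ratio by about the all-gene median. It left 7 members called higher for photons (Ccng1, Eda2r, Ei24, Trp53inp1, Ercc5, Rrm2b and Dcxr) and 10 for protons, all of which had been called by library totals except that Zmat3 was lost. Over all genes the split of higher to lower calls went from 687 to 309 by library totals to 463 to 474 for photons, and from 642 to 357 to 410 to 501 for protons. By library totals ratios above 0 were found for 26 of 34 members for photons, where 64.6% of all genes had them, and for 31 for protons, where 64.5% did. By the median of ratios, which sets the all-gene median to 0, they were found for 23 and 26 members. Counting intervals wholly above 0 were found for 21 members for photons, where 29.2% of all genes had them, and for 27 for protons, where 29.5% did. Wholly below 0 were 4 members for photons (12.4% of all genes), namely Ppm1d, Plk3, Sfn and Perp, and 1 for protons (12.6%), Sfn.

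**Figure D1:**
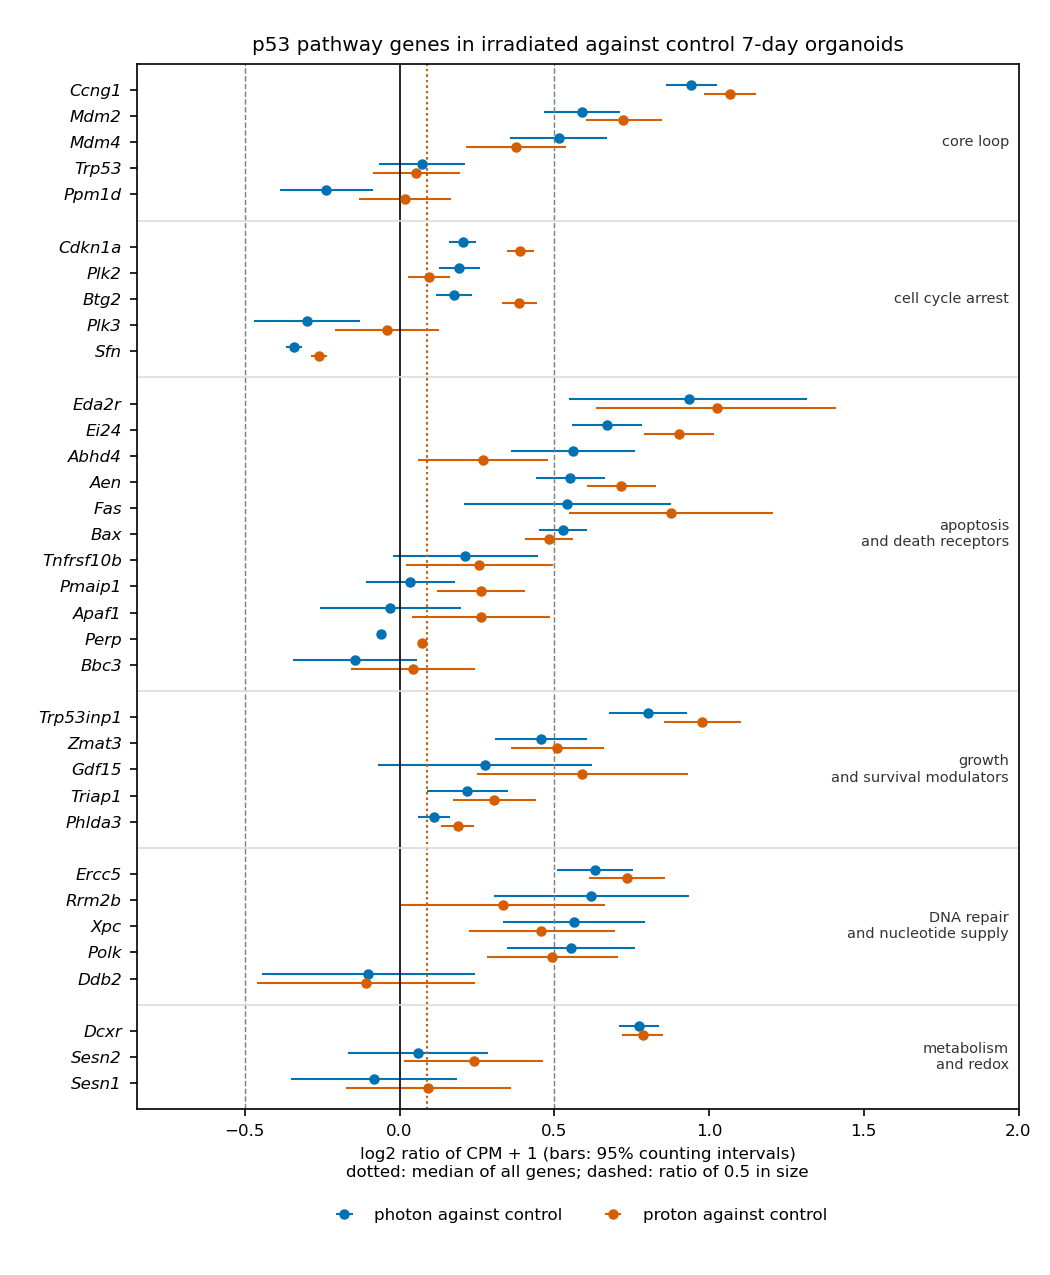
Each row is a member, grouped by role. Points give the log2 ratio of CPM + 1 of the photon (blue) and proton (orange) library against the control, with 95% counting intervals, the dotted lines the medians of all genes (0.09 in both, drawn over each other) and the dashed lines the ratio of 0.5 in size used for calls. Ccng1, Eda2r, Trp53inp1, Dcxr and Ei24 lie right of the dashed line in both comparisons, and Sfn left of 0.

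The core loop holds p53, its inhibitors and the genes that reset it. Trp53 stood at 39.8 CPM in the control, 41.9 in the photon and 41.4 in the proton library, and the 3 counting intervals overlapped. Mdm2, which encodes the ligase that degrades p53, stood at 45.7 CPM in the control, 69.2 in the photon and 76.0 in the proton library. Both irradiated values lay above the control interval of 42.4 to 49.1, and the log2 ratios were 0.59 (0.47 to 0.71) and 0.72 (0.60 to 0.85). Ccng1, whose product directs the phosphatase PP2A to MDM2, was at 96.2 CPM in the control, 186 in the photon and 203 in the proton library. Its ratios were 0.94 (0.86 to 1.03) for photons and 1.07 (0.99 to 1.15) for protons, and its CPM were 1.93 and 2.11 times the control. These were the highest ratios of the 34 members with 1 CPM added, whereas in plain CPM the rarer Eda2r was higher, at 2.26 and 2.43 times the control. Mdm4, the partner of MDM2 that blocks p53, was at 27.9, 40.3 and 36.5 CPM in the same order, with ratios of 0.51 and 0.38. The photon ratio passed 0.5 and the proton ratio did not, with intervals of 0.36 to 0.67 and 0.22 to 0.54. Ppm1d encodes the phosphatase WIP1, which switches damage signalling off and is itself known as a p53 target. It had a ratio below 0 for photons, at 36.7 CPM in the control and 31.0 in the photon library (ratio -0.24, -0.39 to -0.09), and was at 37.2 CPM in the proton library. The loop thus split: Mdm2 and Ccng1 were called higher in both irradiated libraries, and Ppm1d in neither. Over all genes 6.49% were called higher for photons and 6.15% for protons.

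None of the 5 arrest genes was called higher or lower in either comparison, and with 6.49% and 6.15% of all genes called higher a list of this size need hold none. With at least 2500 genes per barcode Btg2 was called higher for both radiations (0.51 and 0.61), and in Malat1-low barcodes Cdkn1a was (0.56 and 0.64). Over the 15 alternative settings Cdkn1a passed 0.5 in 1 for photons and in 3 for protons. Cdkn1a, the classical p53 target, was already abundant in untreated mSGOs, at 384 CPM, and stood at 442 CPM after photons and 504 after protons. Its ratios of 0.20 (0.16 to 0.25) and 0.39 (0.35 to 0.43) had intervals above 0, with the control lowest and the proton library highest. Without barcodes that held at least 2 UMIs of cycling markers, they were 0.06 and 0.25. Btg2, an antiproliferative co-regulator, showed a like order, with 233, 263 and 304 CPM and ratios of 0.18 and 0.39. Sfn encodes 14-3-3 sigma, which holds cells in G2 and is also a product of stratified epithelium. It stood at 1286 CPM in the control, 1015 in the photon and 1074 in the proton library. Its ratios were -0.34 (-0.37 to -0.31) and -0.26 (-0.29 to -0.23), the lowest of the 34 members in each comparison. The polo-like kinase genes differed from each other, with ratios of 0.19 and 0.09 for Plk2 and of -0.30 and -0.04 for Plk3.

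Sfn and Perp are normally abundant in cornifying squamous cells, and the markers of these cells did not share a direction. The 9 squamous markers summed to 2360 CPM in the control, 2010 in the photon and 1587 in the proton library. Of the 8 with enough UMIs, 4 were called lower in each comparison, Krtdap with the lowest proton ratio (-0.82 and -1.44), while 1 was called higher for photons and 0 for protons. The one called higher was Ivl (involucrin), with ratios of 0.76 and 0.50, and Sprr1a had ratios of 0.22 and -0.12. Cycling markers summed to 405, 243 and 275 CPM. The part of either list in the ratios of the arrest genes was not tested beyond the settings given. Ratios of Cdkn1a, Sfn and Perp within clusters of barcodes are given below.

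Of the 11 death genes with enough UMIs, 6 were called higher for photons (Bax, Fas, Eda2r, Aen, Ei24 and Abhd4) and 4 for protons (Fas, Eda2r, Aen and Ei24), where 6.49% and 6.15% of all genes were. By the median of ratios Eda2r and Ei24 alone of the 6 stayed called for photons, and all 4 for protons. Bax encodes the protein that opens pores in the outer mitochondrial membrane. It was at 119.7 CPM in the control, 173 in the photon and 168 in the proton library, with ratios of 0.53 (0.45 to 0.61) and 0.48 (0.40 to 0.56). Exons of Bax overlap those of Gm45808 on the same strand in the GENCODE annotation, and both are in the gene list. The level of Bax is therefore uncertain. Bbc3 and Pmaip1, which encode the BH3-only proteins PUMA and NOXA that trigger BAX, had ratios of -0.14 and 0.03 for photons. For protons Bbc3 was at 0.04 and Pmaip1 at 0.26 (0.12 to 0.41). The BH3-only levels were 19.1, 17.2 and 19.8 CPM for Bbc3 and 37.1, 38.0 and 44.8 CPM for Pmaip1 in the control, photon and proton library.

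The 3 death receptor genes were rare. Eda2r and Fas were called higher in both irradiated libraries, where 6.49% and 6.15% of all genes were. Eda2r, the receptor of ectodysplasin A2, had 41 UMIs in the control (2.59 CPM), 159 in the photon (5.86 CPM) and 156 in the proton library (6.30 CPM). Both irradiated values lay above the control interval of 1.86 to 3.51 CPM, and the ratios were 0.93 (0.55 to 1.32) and 1.02 (0.63 to 1.41). Fas stood at 4.67, 7.26 and 9.41 CPM, from 74, 197 and 233 UMIs, with ratios of 0.54 (0.21 to 0.88) and 0.88 (0.55 to 1.21). Tnfrsf10b, the receptor of TRAIL, had 12.4, 14.6 and 15.1 CPM and was not called, with ratios of 0.21 (-0.02 to 0.45) and 0.26.

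Aen, a nuclease of apoptotic cells, was at 57.0 CPM in the control, 83.9 in the photon and 94.2 in the proton library (ratios 0.55 and 0.72). Ei24, a protein of the endoplasmic reticulum linked to autophagy, was at 52.9, 84.7 and 99.7 CPM, with ratios of 0.67 (0.56 to 0.78) and 0.90 (0.79 to 1.01) whose intervals did not overlap. Abhd4, a lipid hydrolase, was highest after photons, at 16.4, 24.6 and 19.9 CPM. Apaf1, the scaffold of the apoptosome, had ratios of -0.03 and 0.26. Perp, a p53 target that is also a structural part of desmosomes, was the member with the most UMIs in these epithelial cells, at 4482, 4300 and 4712 CPM. Its ratios of -0.06 and 0.07 had opposite signs and intervals that excluded 0, which at this depth shows only how precisely the counts were known, and the proton ratio became -0.03 by the median of ratios.

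All 5 modulators of growth and survival had ratios above 0 in both comparisons, with 1 called higher for photons and 3 for protons. Over all genes 64.6% and 64.5% had ratios above 0, and 6.49% and 6.15% were called higher. Trp53inp1, whose product supports p53 and autophagy, was at 42.0 CPM in the control, 74.0 in the photon and 83.6 in the proton library. Its ratios of 0.80 (0.68 to 0.93) and 0.98 (0.85 to 1.10) came after those of Ccng1 and Eda2r for each radiation. Zmat3, an RNA-binding regulator of splicing, was at 31.4, 43.5 and 45.2 CPM, on either side of the call with ratios of 0.46 and 0.51. Gdf15, a secreted stress cytokine, had 72, 155 and 182 UMIs (4.55, 5.71 and 7.35 CPM). Its photon ratio of 0.28 had an interval that included 0 (-0.07 to 0.62), whereas its proton ratio of 0.59 had not (0.25 to 0.93). Triap1, a mitochondrial survival factor, had ratios of 0.22 and 0.31. Phlda3, an inhibitor of AKT at the membrane, was abundant in the control at 290.5 CPM and had ratios of 0.11 and 0.19.

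Of the 5 genes of repair and nucleotide supply, 4 were called higher for photons and 1 for protons, Ercc5, where 6.49% and 6.15% of all genes were. By the median of ratios Ercc5 and Rrm2b stayed called for photons and Ercc5 for protons. In Malat1-high barcodes Ercc5 alone stayed called for photons (0.64), with Polk at 0.45, Rrm2b at 0.32 and Xpc at 0.28. Ercc5, the endonuclease XPG of nucleotide excision repair, was at 45.1 CPM in the control, 70.4 in the photon and 75.8 in the proton library (0.63, 0.51 to 0.75, and 0.74, 0.61 to 0.86). Xpc, which recognises distorted DNA, had ratios of 0.56 (0.33 to 0.79) and 0.46 (0.22 to 0.69). Polk, a translesion polymerase, had ratios of 0.55 and 0.49. Rrm2b, the p53-inducible subunit of ribonucleotide reductase, was at 5.37, 8.77 and 7.03 CPM with ratios of 0.62 and 0.33. Xpc, Polk and Rrm2b were called for photons and not for protons, but set directly against each other the proton values of Xpc and Polk differed from those after photons by -0.10 (-0.29 to 0.08) and -0.06 (-0.22 to 0.10), intervals that include 0. Ddb2, which senses ultraviolet damage, had 82, 129 and 117 UMIs, and ratios of -0.10 and -0.11 with intervals that included 0.

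Of the 3 metabolic genes, Dcxr was called higher in both irradiated libraries and the sestrins in neither, where 6.49% and 6.15% of all genes were. Dcxr, a reductase of xylulose and other dicarbonyl compounds, was at 158 CPM in the control, 270.5 in the photon and 273 in the proton library. Its ratios of 0.77 (0.71 to 0.84) and 0.79 (0.72 to 0.85) coincided within counting error. The sestrins restrain mTORC1 and limit oxidative damage. Sesn1 was at 9.79, 9.18 and 10.5 CPM with both intervals including 0, and Sesn2 had ratios of 0.06 and 0.24, and the proton interval lay just above 0 (0.02 to 0.46).

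Protons were set against photons directly, since these libraries share no sample. No member was called higher or lower at a ratio of 0.5, where 0.738% and 1.35% of 10833 genes were. The member ratios ran from -0.29 to 0.33 with a median of 0.11, and the median of all genes was 0.00. The interval of proton against photon was above 0 for 18 of 34 members, where 14.5% of all genes had such an interval, and below 0 for 4 (Mdm4, Plk2, Abhd4 and Rrm2b), where 12% had one. The largest differences toward protons were Fas (0.33, 0.08 to 0.58), Gdf15 (0.31, 0.04 to 0.59) and Apaf1 (0.29, 0.10 to 0.48). Ppm1d (0.25, 0.12 to 0.39), Plk3 (0.26, 0.11 to 0.41), Ei24 (0.23, 0.15 to 0.31), Cdkn1a (0.19, 0.15 to 0.22) and Btg2 (0.21, 0.16 to 0.26) were also higher after protons. In the other direction Abhd4 differed by -0.29 (-0.45 to -0.13) and Rrm2b by -0.28 (-0.54 to -0.03). In Malat1-high barcodes alone Abhd4 differed by -0.22, whereas Rrm2b was nearly level at 0.02. Dcxr (0.01, -0.04 to 0.06) and Bax (-0.05, -0.11 to 0.01) differed by no more than these intervals allow. The dose was 7 Gy for both, with 1 library each, so these differences of at most 1.3 times in CPM cannot be told apart from those between any 2 organoid preparations.

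The median member ratio was above the all-gene median both in barcodes with nuclear RNA and in those with little of it. For photons 24 of 34 members lay above the all-gene median of the Malat1-high and 21 above that of the Malat1-low barcodes, and for protons 28 and 27 did, so members such as Ppm1d, Sfn and Plk3 lay below it for photons in both classes. Among Malat1-high barcodes 11 of 34 members were called higher for photons (7.48% of all genes) and 11 for protons (5.92%), with member medians of 0.25 and 0.34 and all-gene medians of 0.06 and 0.03. Among Malat1-low barcodes 15 were called higher for photons (19% of all genes) and 14 for protons (18%), with member medians of 0.34 and 0.46 and all-gene medians of 0.19 and 0.20. Genes in general were therefore called higher more often in the Malat1-low barcodes. Ccng1 had ratios of 0.85 and 0.95 in Malat1-high and of 1.07 and 1.20 in Malat1-low barcodes. Fas had ratios of 0.90 (0.33 to 1.47) and 1.10 (0.53 to 1.66) in Malat1-high barcodes, and of 0.33 (-0.09 to 0.75), which was not called, and 0.72 (0.32 to 1.14) in Malat1-low barcodes. Cdkn1a differed between the classes, at 0.17 (0.11 to 0.22) for photons in Malat1-high and 0.56 (0.49 to 0.63) in Malat1-low barcodes. In the control its level was 584 CPM in Malat1-high and 233 CPM in Malat1-low barcodes. For Polk, Abhd4, Zmat3 and Xpc the photon ratio was 1.00, 0.78, 0.86 and 0.78 in Malat1-low and 0.45, 0.12, 0.27 and 0.28 in Malat1-high barcodes.

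**Figure D2:**
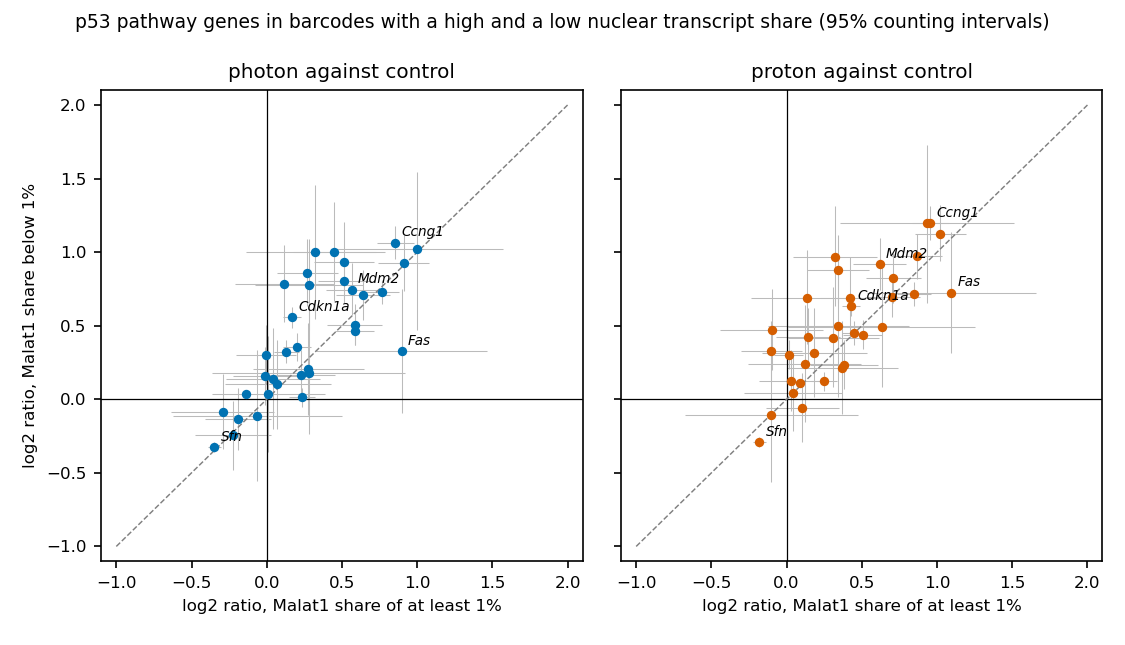
Each point is a member with at least 50 UMIs in both classes of barcodes. The horizontal axis gives the log2 ratio of CPM + 1 against the control in Malat1-high barcodes (at least 1% of UMIs), the vertical axis that in Malat1-low barcodes, and the bars are 95% counting intervals. Most points lie above the dashed line of equal ratios, Ccng1 and Mdm2 are in the upper right quadrant, and Sfn is below 0 on both axes in both panels.

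Malat1-high barcodes were clustered without the member genes, to compare like barcodes across the 3 libraries. This gave 9 clusters, of which the last held 22 barcodes and is not used. Cluster 8 was cycling-like, with 9 of 10 cycling markers at least 2-fold higher than elsewhere, and cluster 5 was squamous-like, with 5 of 9 squamous markers. The other clusters stay unnamed and are known by their leading genes: Adm and Pfkfb3 (1), Tsix (2), Sostdc1 and Hmga2 (3), Krt15 and Aldh3a1 (4), Slc39a1 (6), and Zfp750 and Txnip (7). Ccng1 was above the control in each of the 8 clusters, with ratios of 0.26 to 1.51 for photons and 0.59 to 1.36 for protons. The interval for photons in cluster 8, with 19 photon and 42 control barcodes, included 0 (-0.23 to 0.74). Dcxr was likewise above 0 in each, at 0.09 to 1.37 and 0.58 to 1.42, as was Bax, at 0.40 to 0.86 and 0.17 to 0.81. The median member ratio was above 0 in each cluster except for photons in cluster 8, where it was -0.04.

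The ratio of Cdkn1a differed between clusters. In the control it was at 1265 CPM in the squamous-like cluster 5 and at 245 to 766 CPM in the other 7 clusters. Cluster 5 held 152 of the 1040 Malat1-high barcodes of the control, 119 of 1584 of the photon library and 102 of 1373 of the proton library. Within clusters the photon ratio of Cdkn1a was above 0 in 7 of 8, from 0.30 in cluster 8 to 0.85 in cluster 4, and was -0.16 (-0.27 to -0.06) in cluster 5. For protons it was above 0 in all 8, from 0.35 in cluster 5 to 1.19 (0.90 to 1.48) in the cycling-like cluster 8. When every cluster was given its weight in the control library, the Cdkn1a ratios over Malat1-high barcodes went from 0.17 to 0.30 for photons and from 0.43 to 0.54 for protons. The last of these passed the 0.5 used for calls. In cluster 8 the proton barcodes held 724 CPM of Cdkn1a, the control ones 318 CPM and the photon ones 391 CPM, from 34, 42 and 19 barcodes.

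Sfn and Perp also differed in level between clusters. Sfn was highest in cluster 5 of the control (2631 CPM) and lowest in cluster 2 (490.4 CPM). Its photon ratios were -0.35 in cluster 5 and 0.31 in cluster 1, so the sign differed between clusters, and with control weights the ratios went from -0.35 to -0.19 for photons and from -0.18 to -0.04 for protons. Perp was at 8898 CPM in cluster 5 and 1980 CPM in cluster 8 of the control, and its photon ratio went from -0.13 to 0.01 with control weights. Trp53inp1 was above 0 in each of the 7 clusters with enough UMIs for photons, from 0.64 to 2.16, and in all 8 for protons, from 0.66 to 1.60. Mdm2 was above 0 in clusters 1 to 7 for both radiations and was -0.98 (-2.05 to -0.02) for photons and -0.03 for protons in cluster 8. Trp53 had no common direction, at -0.92 to 0.54 for photons. Sesn1 was most abundant in cluster 7, at 40.6 CPM in the control against 4.28 to 21.02 CPM in the others, and its ratios there were -0.01 and 0.25.

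**Figure D3:**
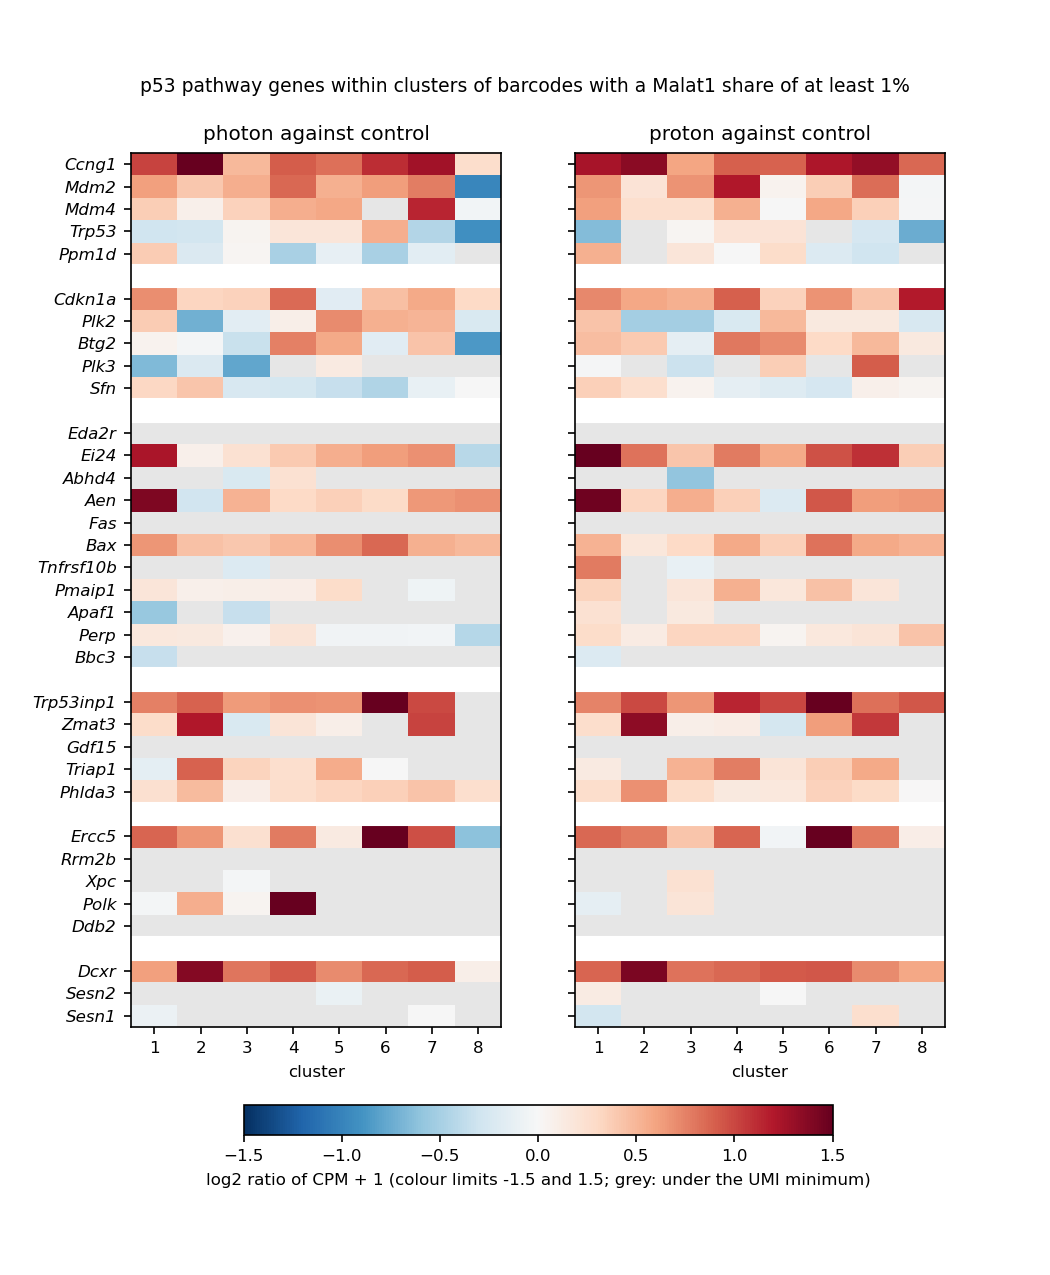
Rows are members in the order of the plot of ratios by role, and columns are clusters 1 to 8 of the Malat1-high barcodes. Colour gives the log2 ratio of CPM + 1 against the same cluster of the control, red for higher and blue for lower, and grey marks members with under 50 UMIs in the pair. The rows of Ccng1, Bax, Trp53inp1 and Dcxr are red in each filled cell, while those of Trp53, Sfn and Plk2 hold both colours.

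Summed per barcode, the difference was a fraction of a UMI and depended on the genes included. Each barcode was thinned to 1000 UMIs, which left out 3930 control, 6940 photon and 8562 proton barcodes that had fewer, and the UMIs of 31 targets were summed (without Trp53 and Mdm4, which are not readouts, and without Sfn and Perp, whose high counts would dominate). The mean was 2.05 UMIs per control barcode, 2.54 per photon and 2.72 per proton barcode. The unthinned sums were 2012, 2585 and 2780 CPM. With Sfn and Perp included they were 7780, 7901 and 8566 CPM and the thinned means 7.78, 7.73 and 8.31 UMIs, so the photon library was then nearly level with the control. In Malat1-high barcodes the means were 2.49, 3.08 and 3.32, and in Malat1-low barcodes they were 1.77, 2.44 and 2.58. The middle 50% of barcodes ran from 1 to 3 UMIs in the control and photon libraries and from 1 to 4 in the proton library. In Malat1-high barcodes it ran from 1 to 3 in the control, 2 to 4 in the photon and 2 to 5 in the proton library, and in Malat1-low barcodes from 1 to 2, 1 to 3 and 1 to 4. These ranges overlap, and at 1000 UMIs per barcode they include the counting noise of single barcodes.

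Of 56 further p53 targets outside the 35, 53 had enough UMIs. For photons 9 were called higher and 1 lower, where 6.49% and 2.92% of all genes were, and for protons 14 were called higher and 3 lower, against 6.15% and 3.42%. Their medians were 0.26 and 0.31, where that of all genes was 0.09. The highest with at least 200 UMIs were Ak1, an adenylate kinase (0.89 and 1.12), Psrc1, a spindle protein (0.75 and 0.77), Pmm1, a phosphomannomutase (0.70 and 0.73), Steap3, a ferrireductase (0.60 and 0.93), and Vcan, the proteoglycan versican (0.74 and 0.53). The lowest were Sertad3 (-0.93 and -0.67), Dram1, a lysosomal autophagy protein (-0.50 and -0.55), Pltp (-0.47 and -0.57), Ckap2 (-0.37 and -0.28) and Prkab1 (-0.12 and -0.21). Pmm1 had the most UMIs among the 5 highest, at 131 CPM in the control, 213 in the photon and 218 in the proton library.

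Upstream of p53, none of 22 activators and regulators was called higher or lower in either comparison, which with shares of 6.49% and 6.15% higher and 2.92% and 3.42% lower over all genes is a small difference in a list of this size. The kinase Atm had ratios of 0.30 (-0.07 to 0.67) and 0.21, Atr of 0.09 and 0.09, and Chek2 of -0.17 and -0.18, from 36 to 187 UMIs per library for these and Chek1. Chek1, which is tied to S phase, had ratios of -0.49 and -0.32. The p53 relative Trp63, a regulator of basal epithelial cells, was at 67.9, 56.9 and 61.8 CPM, with ratios of -0.25 (-0.36 to -0.14) and -0.13.

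Genes that p53 represses through p21 and the DREAM complex were lower. Of 14 such cell cycle genes with enough UMIs, 13 were called lower for photons and 13 for protons, with medians of -0.89 and -0.86, where 2.92% and 3.42% of all genes were called lower. Mki67, the marker of cycling cells, was at 24.8, 8.74 and 9.53 CPM (ratios -1.41 and -1.29), and the cyclin Ccna2 at 13.01, 5.20 and 5.66 CPM (-1.18 and -1.07). These genes are also markers of cycling cells, so fewer such cells and less RNA in each cannot be told apart here. The cycling-like cluster held 42 control, 19 photon and 34 proton barcodes.

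The integrated stress response shares targets such as Sesn2 with p53. Of its 15 genes 0 were called higher and 1 lower in each comparison, close to the shares over all genes given above, with medians of -0.05 and 0.06. Psat1, an enzyme of serine synthesis, had ratios of -0.66 and -0.75, and Asns, the asparagine synthetase, of -0.40 and -0.46. Of 16 immediate early and dissociation genes, 2 were called higher and 3 lower for each radiation, where 6.49% and 2.92% of all genes were for photons and 6.15% and 3.42% for protons. Fos stood at 63.6, 123 and 128 CPM (0.94 and 0.99), and Nr4a1 had ratios of -0.89 and -0.99.

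Markers of other cell types were checked beside these values. Immune markers summed to 36.5 CPM in the control, 46.8 in the photon and 44.9 in the proton library, with Ptprc, C1qa, Cd3e and Ms4a1 at 0 UMIs in all 3. Of the 22 immune markers 3 had enough UMIs, and 2 of them were called higher for photons and 1 for protons: Cd68, a lysosomal protein, had ratios of 0.83 and 0.63, and Cd14 of 0.52 and 0.47, while H2-Ab1 had -0.44 and -0.27. Endothelial markers summed to 2.78 to 3.61 CPM and fibroblast markers to at most 0.364 CPM. Basal duct markers summed to 8500, 9463 and 9321 CPM, with Krt15 alone of the 5 called higher (1.11 and 1.07). Luminal duct markers summed to 3911, 3415 and 3734 CPM, with Cldn4 called lower for photons (-0.60 and -0.32) and Krt19 higher for protons (0.18 and 0.52). Pro-acinar markers summed to 102, 85.3 and 85.1 CPM, with Aqp5 called lower in both (-1.65 and -1.81) and Slc12a2 higher for protons (0.36 and 0.62). Myoepithelial markers summed to 624, 423 and 422 CPM, with Lgals7 (-0.58 and -0.62) and Csrp1 (-0.88 and -0.92) called lower in both. The part of these differences in the member ratios was not tested beyond the clusters above.

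In untreated 11-day mSGOs members were called in both directions against the 7-day control. Of 34 members 17 were called higher and 10 lower, where 67.3% and 9.49% of 12186 genes were, the all-gene median being 1.00 and the member median 0.43. The core loop had 4 of 5 members called higher and 0 lower, repair 4 of 5 and 0, metabolism 2 of 3 and 0, arrest 1 of 5 and 3, the death genes 4 of 11 and 5, and the modulators 2 of 5 and 2. Culture age, the batch of animals, the run and the share of barcodes with nuclear RNA all differ here. So do the counting software and its gene list (32285 genes against 31053), and none of these can be told apart. With median-of-ratios scaling 6 members remained called higher (Mdm4, Fas, Eda2r, Trp53inp1, Rrm2b and Sesn1) and 19 were lower. The 19 included Mdm2 and Ppm1d of the core loop, Ercc5 of repair and Dcxr of metabolism, where library totals had 0 lower. The split of all genes went from 8198 to 1156 to 4322 to 4066. Eda2r had the highest ratio, 3.28 (2.93 to 3.61), from 2.59 CPM at 7 days to 33.6 CPM at 11 days. Fas went from 4.67 to 25.3 CPM, Rrm2b from 5.37 to 24.8, Sesn1 from 9.79 to 40.0, Mdm4 from 27.9 to 116 and Trp53inp1 from 42.0 to 157. By CPM, Eda2r and Fas were at a higher level in untreated 11-day mSGOs than in either irradiated 7-day library. Cdkn1a was lower, at 169 CPM against 384 (ratio -1.17, -1.23 to -1.12), as were Sfn at 355 CPM (-1.85), Phlda3 at 165 CPM (-0.81), Aen at 30.8 CPM (-0.86) and Perp at 784 CPM (-2.51), the lowest ratio of the comparison. Within Malat1-high barcodes, Cdkn1a was again lower (169 against 584 CPM) and Eda2r again higher (33.6 against 3.53 CPM). Summed markers differed as well: basal duct markers were at 8500 CPM at 7 days and 3800 at 11 days, and cycling markers at 405 and 104. Pro-acinar markers were at 102 and 560 CPM, and squamous markers at 2360 and 2655. Their part in the member ratios was not tested.

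Over all kept barcodes, fresh tissue had lower CPM of most members than the 7-day control, but fewer were called lower in Malat1-high barcodes. All 33 members with enough UMIs but Fas and Rrm2b were called lower than in the 7-day control, 31 in all, where 73.5% of 9607 genes were called lower and 9.99% higher. The all-gene median was -1.22 and the member median -2.03. The lowest ratios were those of Perp (-7.17, from 4482 to 30.2 CPM), Sfn (-7.12, from 1286 to 8.27 CPM) and Phlda3 (-5.90, from 290.5 to 3.88 CPM). Btg2, at 148 CPM against 233, kept the highest level of the members in tissue. By the median of ratios Btg2, Fas, Rrm2b and Sesn1 were called higher and 23 members lower, the split of all genes going from 960 to 7064 to 3091 to 3140. Eda2r and Pidd1 had 0 UMIs in tissue, where 3 counts, the floor used for a count of 0, would be 0.506 CPM and the 95% Poisson interval reaches 0.623 CPM. Immune markers summed to 6086 CPM in tissue against 36.5 in the 7-day control, and endothelial markers to 306 against 2.78. The part of acinar, immune and endothelial RNA in these CPM was not tested. Nor were the cell types of the Malat1-high tissue barcodes that follow. In the 158 Malat1-high tissue barcodes, set against those of the control, 30 members had enough UMIs and the all-gene median was -0.09. There 16 members were called lower (36.1% of all genes) and 4 higher (30.4%), namely Btg2, Tnfrsf10b, Rrm2b and Sesn1, and 10 were not called. Btg2 was at 661 CPM against 290.0 in such control barcodes, Trp53 at 64.0 against 53.6, Mdm4 at 54.8 against 45.7 and Sesn1 at 28.7 against 13.7. Fas, with too few UMIs for a call, was at 24.8 against 3.67 CPM.

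**Figure D4:**
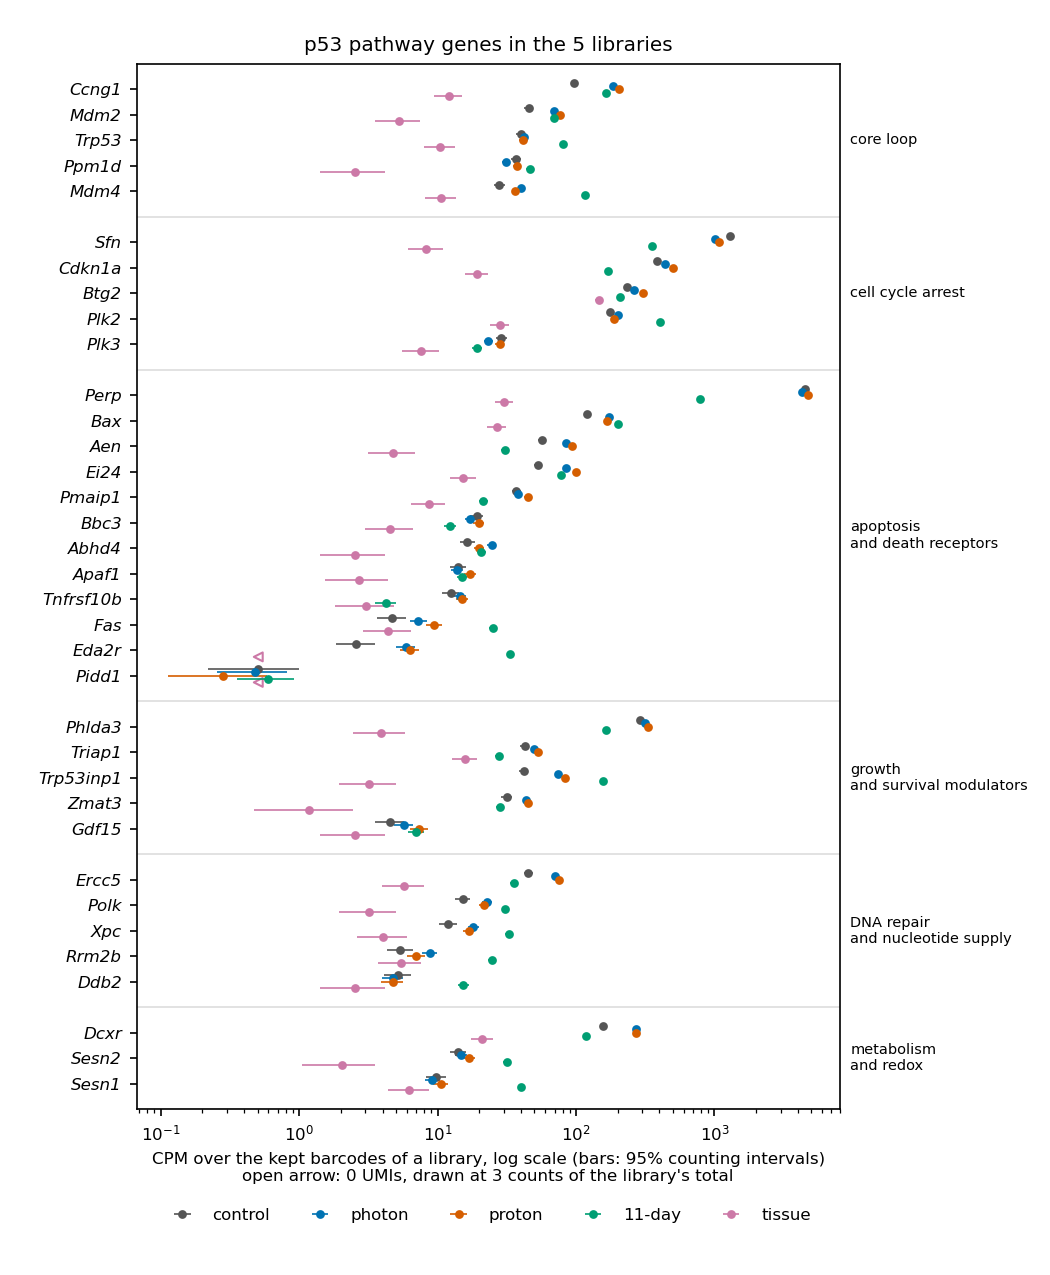
Each row is a member and each point its CPM over the kept barcodes of a library, on a log scale, with 95% counting intervals and the 5 libraries in colour. Open arrows mark 0 UMIs at the level of 3 counts. The tissue points lie left of the organoid points for most members, and the 11-day points of Eda2r, Fas, Sesn1, Rrm2b and Mdm4 lie right of the 7-day points.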

How the data were processed

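Droplet-based 3′ single-cell RNA-seq (10x Genomics) of sorted cells gave 1 library per group, and groups were taken from the labels. For each library the authors deposited whole-number counts of UMIs per gene and barcode. The submitters' processing notes name Cell Ranger 5 and mm10, the file headers name software versions 3.0.1 and 7.0.0, and the study's methods name another build, so gene and promoter positions are those of RefSeq GRCm38.p6 (mm10) and not of the counting. No matrix held a barcode with under 500 UMIs. The counts are of 3′ ends, so CPM is not divided by gene length.

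Barcodes with at least 200 genes and at most 5% mitochondrial UMIs were kept, and doublets were removed with Scrublet (scanpy 1.11.5) at 0.8% per 1000 barcodes. Its automatic threshold was used for photons, and where it marked under 0.5% of barcodes, as in the other libraries, that many top-scoring barcodes were removed instead as the rate predicts. Removal thus differed between photons and protons. The lower limit of 2500 detected genes that the study's methods give was run as an alternative, since it keeps few of these barcodes. The study reports more cells from 7-day organoids than the 7151 control barcodes in the matrix, of which 193 pass the filters and this limit. How the limit gave the study's cells is therefore not clear. UMIs were summed over kept barcodes and scaled to CPM, and log2 ratios used a pseudocount of 1 CPM. Intervals are exact Poisson for CPM and exact binomial for ratios, given the total of a gene, at 95%. Comparisons with the 11-day library used the 30406 genes in both lists. Clustering used 2000 variable genes without the members, 30 components, 15 neighbours and Leiden (leidenalg 0.10.2) at 0.8. The ratio and interval code was tested on simulated data.

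The members and the gene lists were chosen with earlier results of these data known. The named genes were all 35 members, from the further p53 targets the 5 highest and 5 lowest by whichever ratio to the control was nearer 0, given the same sign for both radiations and at least 200 UMIs, 5 regulators fixed by name, and the 2 largest of each other list. Marker lists, named in the text, served as checks. Alternatives were other filters, classes of barcodes, thinning, cluster weights, pseudocounts, UMI minimums and scalings. Protein sequences were not used here.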

Additional observations from a re-analysis of the deposited data

Results flagged for a closer look

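Perp had photon ratios of opposite sign in the classes of barcodes: -0.13 (-0.16 to -0.11) in Malat1-high and 0.04 (0.02 to 0.05) in Malat1-low barcodes. Both counting intervals excluded 0 and each other, but with 1 library per group the difference between the classes was not tested.

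In barcodes left out for a mitochondrial share over 5% (279 control, 905 photon and 751 proton barcodes), 4 of 25 members with enough UMIs were called higher for photons and 3 lower, where 10.2% and 11.1% of all genes were, and 6 of 23 were called higher for protons and 0 lower, against 8.80% and 11.6%. The 3 called lower, Plk3 (-0.68), Apaf1 (-0.57) and Triap1 (-0.53), had counting intervals that included 0. Bax and Dcxr were called higher in both irradiated libraries with intervals above 0. Bax had log2 ratios of 0.71 for photons and 0.59 for protons, from 37 control, 232 photon and 188 proton UMIs. Dcxr had 1.13 and 1.18, from 34, 285 and 261 UMIs. These barcodes were left out of the values in the report and entered only the alternatives with other limits on the mitochondrial share.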

How the results depend on the processing

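No paired analysis was possible because each group has 1 library, so no replicate could be left out either. Across the alternatives the median member ratio stayed above the all-gene median, at 0.16 to 0.38 for photons, 0.26 to 0.46 for protons and 0.08 to 0.12 for protons against photons. Members called higher for photons were 15 by the main settings (6.49% of all genes) and 7 with median-of-ratios scaling (4.37%). With at least 2500 genes per barcode, the limit in the study's methods, they were 6 of 29 (8.83%). With control cluster weights in Malat1-high barcodes, a setting added after seeing the data, they were 9, and the share over all genes is not given. The median member ratio for photons was 0.38 as a mean over single barcodes. For protons the count of 11 (6.15%) ran from 9, as with at least 2500 genes (9.51%), to 14, as in Malat1-low barcodes (18%). For protons against photons, 2 members were called higher with at least 2500 genes and 0 otherwise. With median-of-ratios scaling the 11-day count of 17 (67.3% of all genes) became 6 (35.5%), and the tissue count of 0 (9.99%) became 4 (32.2%). In tissue it was also 4 in Malat1-high barcodes (30.4%). The photon ratio of Abhd4 reversed to -0.15 with at least 2500 genes. The cause was not tested. Ccng1, Dcxr, Eda2r and Ercc5 had ratios of at least 0.5 in all 15 alternatives for photons, and these with Ei24, Fas and Trp53inp1 for protons, though Eda2r and Fas had too few UMIs to be called with at least 2500 genes. Of the values examined under the alternatives, 109 moved by more than their counting interval and 400 did not for photons, 117 and 393 for protons, and 57 and 453 for protons against photons. Depth limits Pidd1, Eda2r, Fas, Gdf15, Ddb2 and Rrm2b, each under 100 UMIs in the control.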
